A study of Homo sapiens with 8 samples.

Results

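The 47 genes described here are the WNT ligands, their Frizzled receptors, the LRP5 and LRP6 co-receptors, the secreted inhibitors of the DKK and SFRP families, and the core intracellular factors CTNNB1, AXIN1, AXIN2, LEF1, TCF7, TCF7L1 and TCF7L2. They were chosen by gene symbol from the 60332 genes of an RNA-seq table of human Ewing sarcoma cell lines. Ewing sarcoma (EwS) is a tumor of bone and soft tissue driven by fusions of EWSR1 with an ETS-family gene, and RD-ES and SK-N-MC are established lines of it. Both lines carried a lentivirus for dCas9-KRAB, a cutting-dead Cas9 joined to a repressor domain. In the eKD2 cells it was directed to the GGAA repeat enhancer of LOXHD1. By the labels the virus was empty in the control cells, whereas the study's text calls the control cells parental. All cells were infected at a multiplicity of 10, selected with puromycin at 1 μg/ml for 3 days and used within 5 passages, and were selected pools rather than clones. Each of the 4 groups (RD-ES control, RD-ES eKD2, SK-N-MC control and SK-N-MC eKD2) had 2 libraries, 8 in all, which the study's methods call biological duplicates. The labels do not say that they came from separate cultures, so the p-values below measure only the spread between these libraries.

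WNT proteins are secreted ligands that bind a Frizzled receptor. Together with LRP5 or LRP6 some of them hold off the AXIN-containing destruction complex, beta-catenin (CTNNB1) then builds up and works with TCF/LEF factors on target genes, whereas others, WNT5A being the best known, mostly act without beta-catenin. DKK proteins block the co-receptors and SFRP proteins bind the ligands outside the cell. Crosstalk of this pathway with the EWSR1 fusion has been studied in EwS.

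Levels are FPKM, read counts scaled by transcript length and by library total, so that they may be set side by side between genes. LOXHD1, the gene behind the targeted enhancer, was listed at 21.4 and 21.2 FPKM in the RD-ES controls and 1.04 and 1.02 in RD-ES eKD2, and at 159 and 169 FPKM in the SK-N-MC controls and 11 and 11.95 in SK-N-MC eKD2. It was low in every eKD2 library, as labelled (log2 change -3.46 for RD-ES, -3.73 for SK-N-MC, on the log2(FPKM + 1) scale; limma adjusted p = 0.000113 and 3.71e-05). All 7 Ewing sarcoma markers were detected, with a summed level of 784 to 945 FPKM per library. Relative depth ran from 0.578 (RD-ES eKD2 replicate 1) to 2.31 (SK-N-MC control replicate 1) times that of RD-ES control replicate 1, and absolute depth is not in the table. RD-ES eKD2 replicate 1 stood apart in more than depth. Its epithelial markers CDH1 (3.50 FPKM, at most 0.168 elsewhere) and KRT8 (8.24 FPKM, 1.08 to 2.13 elsewhere) were raised. EPCAM, at 0.971 FPKM, was above the other RD-ES libraries but below those of SK-N-MC. KRT18, the most abundant of the list, was at 40.6 FPKM, below the RD-ES controls (43.0 and 43.3) and above RD-ES eKD2 replicate 2 (36.8). The sum of the 4 epithelial markers was 53.3 FPKM against 38.6 to 45.2 in the other RD-ES libraries. Estimates without this library are given below for LEF1, FZD1, TCF7, FZD3 and FZD7.

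The test used the 15175 genes whose mean over all 8 libraries reached 1 FPKM. Of the 47 WNT genes 28 passed this filter and 19 did not. Of the receptors 9 of 10 were above the filter, while 6 of 19 ligands, 2 of 4 DKK genes and 2 of 5 SFRP genes (FRZB counted among them) passed. LRP5, LRP6, AXIN1, AXIN2, CTNNB1 and all 4 TCF/LEF genes passed.

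Promoter windows were looked up for the receptors FZD5 and FZD4, because their levels differed between the lines in opposite directions and with the smallest p-values of the set. Shown are the 250 bases upstream of the RefSeq start of each gene (GRCh38.p14, gene strand), in lower case with GGAA and its complement TTCC in capitals; GGAA is the core that ETS factors, the DNA-binding part of the EwS fusion included, recognize. The FZD5 window lies at chr2:207769907-207770156 on the minus strand and that of FZD4 at chr11:86955396-86955645, also on the minus strand.
FZD5: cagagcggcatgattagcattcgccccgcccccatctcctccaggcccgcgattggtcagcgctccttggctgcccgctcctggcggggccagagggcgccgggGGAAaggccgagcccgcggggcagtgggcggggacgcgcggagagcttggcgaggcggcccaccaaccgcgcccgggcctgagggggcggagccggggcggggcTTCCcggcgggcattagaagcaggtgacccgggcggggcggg
FZD4: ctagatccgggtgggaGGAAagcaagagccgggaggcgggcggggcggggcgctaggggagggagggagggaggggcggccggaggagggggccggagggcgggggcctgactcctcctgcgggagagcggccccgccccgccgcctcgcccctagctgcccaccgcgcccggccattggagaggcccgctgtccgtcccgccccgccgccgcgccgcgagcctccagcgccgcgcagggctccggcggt
Both are CG-rich. The FZD5 window is 76.8% G and C with 30 CG pairs, and the FZD4 window 80.8% with 33, beside medians of 58% and 11 over the same 250 upstream bases of all 35116 windows of the table. The FZD5 window holds GGAA 2 times on either strand and that of FZD4 1 time, the median over the same 250 bases being 3 times. Windows of 300 bases (250 before and 50 after the start) were found for 33 of the 47 genes, 39 windows in all. The TCF/LEF core ATCAAAG, on either strand, was in 0 of these 39 and in 2.62% of all windows. A GGAA pair in tandem, GGAAGGAA, was in 1, that of TCF7L2, and in 3.67% of all windows, and it overlaps the single GGAA, which was in 35 of the 39 and in 95.5% of all. These matches describe the letters of the windows only.

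Among the ligands, WNT5A made up most of the summed WNT level in RD-ES and less of it in SK-N-MC. WNT5A was listed at 47 and 38.3 FPKM in the RD-ES controls and 43.1 and 45.6 in RD-ES eKD2, against 9.76 and 12 in the SK-N-MC controls and 13.6 and 11.2 in SK-N-MC eKD2. The highest SK-N-MC library was below the lowest of RD-ES, and the share of WNT5A in the summed FPKM of the 19 ligands was 77.9% to 83.1% in RD-ES and 29.9% to 41.2% in SK-N-MC. WNT10A, a ligand of the beta-catenin branch known from tooth and skin development, took the opposite order, with 1.41 and 2.58 FPKM in the RD-ES controls, 2.16 and 2.69 in RD-ES eKD2, 11.4 and 13.4 in the SK-N-MC controls and 7.99 and 10.7 in SK-N-MC eKD2. Its share of the ligand sum was 2.49% to 5.26% in RD-ES and 24.2% to 34.9% in SK-N-MC. WNT10A and WNT5A stood at similar levels in the SK-N-MC controls and in SK-N-MC eKD2 replicate 2. In SK-N-MC eKD2 replicate 1 WNT5A was the higher, at 13.6 against 7.99 FPKM. WNT10B, its close paralog, was even between the lines, at 4.56 and 4.93 FPKM in the RD-ES controls, 6 and 5.38 in RD-ES eKD2, 3.97 and 5.64 in the SK-N-MC controls and 3.35 and 4.28 in SK-N-MC eKD2.

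WNT6, WNT2B and WNT3 were just above the filter. WNT6 was listed at 0 and 0.299 FPKM in the RD-ES controls and 0 and 0.137 in RD-ES eKD2, and at 2.09 and 2.86 and 1.91 and 2.07 in the SK-N-MC controls and eKD2 cells. It is the neighbor of WNT10A on chromosome 2, with 6.62 kb between the annotated genes (GRCh37, WNT6 at chr2:219724528-219738955 and WNT10A at chr2:219745574-219764303, both on the plus strand), and both were low in all RD-ES and higher in all SK-N-MC libraries. WNT2B, at 0.364 and 0.309 FPKM in the RD-ES controls, 0.489 and 0.493 in RD-ES eKD2, 1.57 and 2.16 in the SK-N-MC controls and 2 and 1.61 in SK-N-MC eKD2, had the same order, but 21.5% of its exon bases overlap ST7L on the other strand, which had a mean of 28.5 FPKM, and the library kit does not mark strand. WNT3, an inducer of axis formation in the early embryo, was at 1.68 and 1.74 FPKM in the RD-ES controls, 1.3 and 1.94 in RD-ES eKD2, 1.44 and 1.03 in the SK-N-MC controls and 1.47 and 1.46 in SK-N-MC eKD2, with overlapping lines.

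The other 13 ligands did not pass. WNT7A and WNT9B were listed at 0 in all 8 libraries. WNT1, WNT3A, WNT7B and WNT8A, of which WNT1 and WNT3A are standard activators of beta-catenin, were each above 0 in 1 library, at 0.0154 to 0.0615 FPKM. WNT5B, the paralog of WNT5A, reached the highest single value of any gene that did not pass (0.349 to 1.62 FPKM), WNT9A ran from 0.0352 to 1.07 FPKM, and WNT2 was listed at 0 in the 4 RD-ES libraries and at 0.457 to 0.911 in those of SK-N-MC. WNT4, WNT8B, WNT11 and WNT16 stayed at or below 0.488 FPKM.

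Frizzled receptors were detected in each line as a set of several genes, led by FZD3. FZD3 was listed at 22.7 and 22.7 FPKM in the RD-ES controls, 38.7 and 22.7 in RD-ES eKD2, 48.6 and 52.7 in the SK-N-MC controls and 36.2 and 41 in SK-N-MC eKD2. The first RD-ES eKD2 library, which stood apart above, was far from the other 3 RD-ES libraries and inside the SK-N-MC range. FZD4, a receptor known from retinal vessel growth, was the second of the set in RD-ES, at 21.6 and 21.4 FPKM in the controls and 22.2 and 20.7 in eKD2, but was at 4.78 and 4.38 and 4.73 and 4.67 FPKM in the SK-N-MC controls and eKD2 cells. It held 23.6% to 28.4% of the summed Frizzled level in RD-ES and 3.48% to 4.29% in SK-N-MC. PRSS23 on the other strand shares 18.9% of its exon bases and had a mean of 2.45 FPKM. FZD5 showed the reverse, with 0.565 and 0.62 FPKM in the RD-ES controls, 0.815 and 0.717 in RD-ES eKD2, 8.97 and 9.25 in the SK-N-MC controls and 9.59 and 9.56 in SK-N-MC eKD2. No RD-ES library reached 1 FPKM of FZD5 and no SK-N-MC library was below 8.97.

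FZD1, FZD2 and FZD7 form 1 subfamily of Frizzled receptors by sequence, and all were higher in every SK-N-MC than in every RD-ES library. FZD1 was at 5.48 and 5.94 FPKM in the RD-ES controls, 4.57 and 4.62 in RD-ES eKD2, 15.7 and 16.7 in the SK-N-MC controls and 15.6 and 14.9 in SK-N-MC eKD2. FZD2 was listed at 5.9 and 9.09, 6.75 and 8.1, 15.4 and 15.9 and 14.9 and 17.8 FPKM in the same order of groups. For FZD7 the values were 4.06 and 4.22, 5.19 and 3.94, 8.79 and 8.62 and 10.4 and 10.1 FPKM. FZD8, the subfamily partner of FZD5, had the same order at 4.04 and 3.75 FPKM in the RD-ES controls, 3.22 and 3.46 in RD-ES eKD2, 7.93 and 7.82 in the SK-N-MC controls and 6.38 and 7.16 in SK-N-MC eKD2. FZD6, which acts mainly in planar cell polarity, was flat across the groups, at 10.6 and 10.6, 11.2 and 11.4, 11.9 and 10.1 and 11.9 and 11.5 FPKM. FZD9 was the only tested receptor besides FZD4 with lower values in all SK-N-MC libraries, at 1.15 and 1.61, 1.74 and 1.93, 0.511 and 0.529 and 0.473 and 0.652 FPKM in the 4 groups. FZD10 reached at most 0.0244 FPKM and was listed at 0 in 5 libraries.

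**Figure D1:**
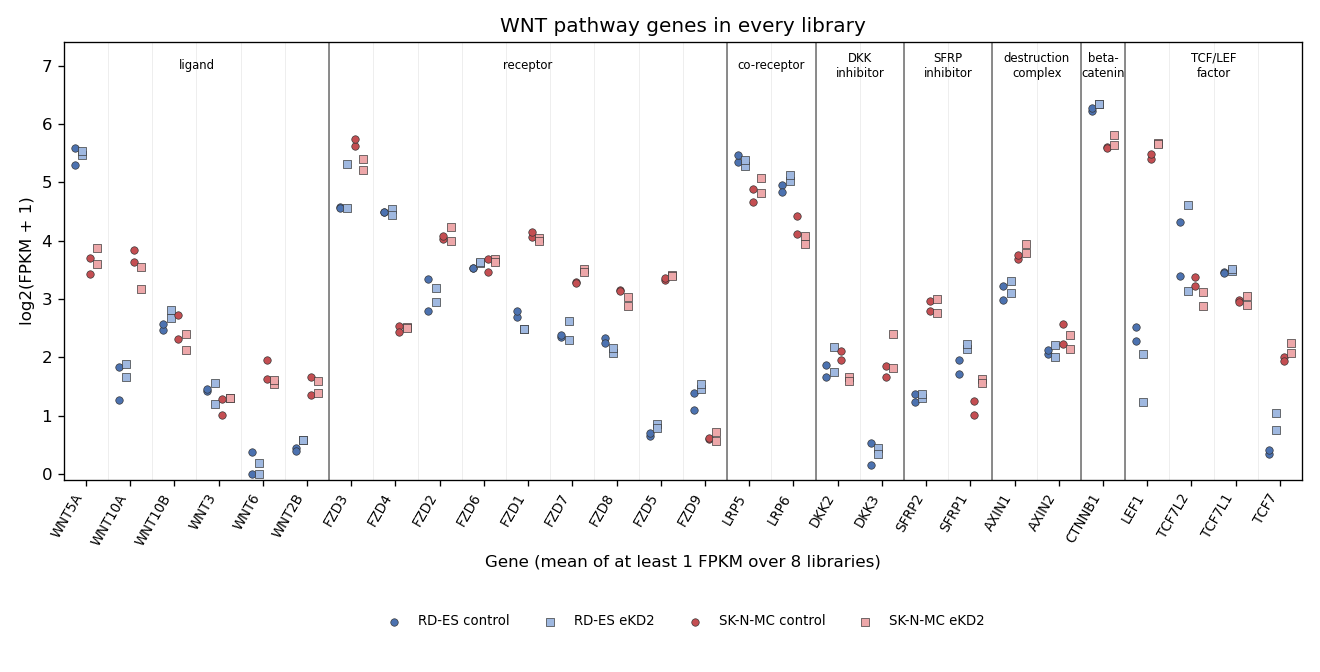
Level of each of the 28 tested WNT genes in every library, as log2(FPKM + 1) on the vertical axis, with genes on the horizontal axis grouped by role. Circles are control and squares eKD2 libraries, blue RD-ES and red SK-N-MC; red and blue points part widely for LEF1, FZD5, FZD4, WNT5A and WNT10A, while control and eKD2 points of a line mostly lie together.

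The co-receptors were abundant in each line and more so in RD-ES. LRP5 was at 39.8 and 43.3 FPKM in the RD-ES controls, 38 and 40.8 in RD-ES eKD2, 24.4 and 28.7 in the SK-N-MC controls and 27.3 and 32.6 in SK-N-MC eKD2. LRP6 was at 29.9 and 27.4, 31.6 and 33.9, 16.4 and 20.6 and 14.4 and 15.9 FPKM. Every RD-ES library was above every SK-N-MC library for each of the 2 genes, with LRP5 the higher of the pair in all 8 libraries.

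Of the inhibitors, DKK1, DKK4 and SFRP5 were listed at 0 in all 8 libraries. DKK1 is also a well-known target gene of beta-catenin. DKK2, which can activate or inhibit the pathway depending on the co-receptor context, was at 2.65 and 2.17 FPKM in the RD-ES controls, 2.36 and 3.52 in RD-ES eKD2, 2.87 and 3.33 in the SK-N-MC controls and 2.15 and 2.04 in SK-N-MC eKD2. DKK3, the divergent member of the family, was at 0.108 and 0.445, 0.361 and 0.263, 2.15 and 2.6 and 2.5 and 4.25 FPKM, but 47.5% of its exon bases overlap USP47 on the other strand (mean 45.5 FPKM), so that its low values are uncertain. SFRP1 and SFRP2, which bind WNT proteins in the extracellular space, differed between the lines in opposite directions. SFRP1 was at 2.88 and 2.26 FPKM in the RD-ES controls, 3.4 and 3.68 in RD-ES eKD2, 1.03 and 1.37 in the SK-N-MC controls and 2.1 and 1.95 in SK-N-MC eKD2. The 2 eKD2 libraries lay above the 2 controls in each line, an order whose share over all genes was not counted. SFRP2 was at 1.34 and 1.58, 1.45 and 1.58, 5.95 and 6.8 and 5.75 and 7.01 FPKM. SFRP4 reached at most 0.66 FPKM and FRZB at most 0.418.

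CTNNB1 was the highest of the set in RD-ES. It was listed at 74.1 and 76.2 FPKM in the RD-ES controls and 80.3 and 80.7 in RD-ES eKD2. In SK-N-MC it was at 47.8 and 47.1 FPKM in the controls and 49.1 and 55.4 in eKD2. FZD3 was the highest of the set in the SK-N-MC controls, at 48.6 and 52.7 FPKM. These are transcript levels, while beta-catenin is regulated mainly through protein stability, which was not measured. AXIN1, the scaffold of the destruction complex, was at 6.93 and 8.35, 7.61 and 8.96, 11.8 and 12.5 and 12.8 and 14.3 FPKM in the RD-ES controls, RD-ES eKD2, SK-N-MC controls and SK-N-MC eKD2. AXIN2, its paralog and a common readout of beta-catenin activity, was at 3.15 and 3.38, 3.03 and 3.62, 3.7 and 4.97 and 3.4 and 4.23 FPKM. All SK-N-MC libraries were above all RD-ES libraries for AXIN1, and the lines overlapped for AXIN2.

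The TCF/LEF genes differed most in make-up. LEF1 was at 3.83 and 4.76 FPKM in the RD-ES controls, 1.34 and 3.18 in RD-ES eKD2, 41.4 and 43.8 in the SK-N-MC controls and 49.97 and 49.3 in SK-N-MC eKD2, and thus made up 6.6% to 19.4% of the summed TCF/LEF level in RD-ES and 69.4% to 74.4% in SK-N-MC. TCF7, the other factor with a mostly activating role, was at 0.264 and 0.323, 1.06 and 0.691, 3.009 and 2.82 and 3.76 and 3.2 FPKM; 2.08% of its exon bases overlap SKP1 on the other strand, which had a mean of 374 FPKM. TCF7L1, best known as a repressor, was at 10.1 and 9.89, 10.1 and 10.5, 6.94 and 6.72 and 6.44 and 7.34 FPKM, with all RD-ES above all SK-N-MC libraries. TCF7L2 varied widely between replicates of RD-ES, with 18.9 and 9.57 FPKM in the controls and 7.82 and 23.5 in eKD2, beside 8.33 and 9.33 and 7.64 and 6.4 in the SK-N-MC controls and eKD2 cells. The ratio of the higher to the lower replicate was 1.98 in the RD-ES controls and 2.999 in RD-ES eKD2, the latter second only to DKK3 in the RD-ES controls (4.13) among tested WNT genes and groups with no value of 0, which leaves out WNT6 in RD-ES.

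**Figure D2:**
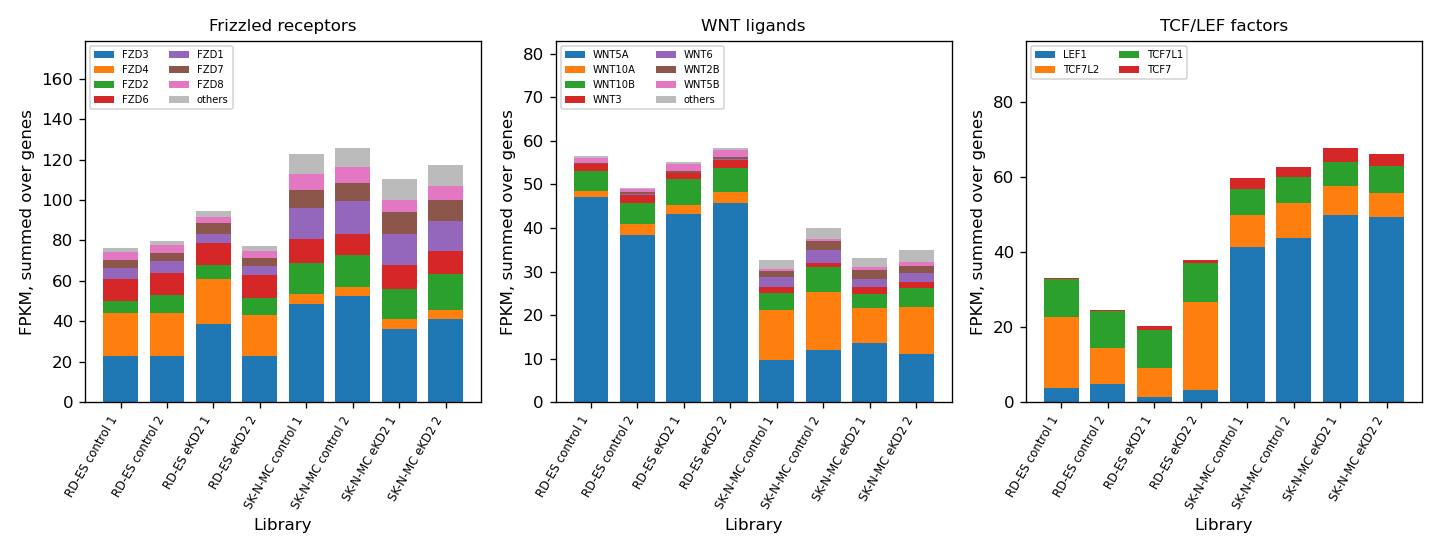
Summed FPKM of the Frizzled receptors, the WNT ligands and the TCF/LEF factors in each library (horizontal axis), with each bar divided by gene. WNT5A fills 77.9% to 83.1% of the ligand bars in RD-ES and at most 41.2% in SK-N-MC, and LEF1 fills at least 69.4% of the TCF/LEF bars in SK-N-MC only.

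The control libraries of the lines were then compared, to find which WNT genes differ between the lines in which the enhancer was silenced. In the SK-N-MC controls LEF1, FZD5, WNT10A, TCF7, WNT6 and SFRP2 were higher, each by a log2 difference of at least 1.58, and FZD4 and WNT5A were lower by 2.01 and 1.88 on the log2 scale. Of the 28 tested genes 22 passed an adjusted p under 0.05 (limma on log2(FPKM + 1), two-sided, Benjamini-Hochberg over all 15175 genes), 14 of them higher and 8 lower in SK-N-MC. Over all genes tested 31.4% were higher and 26.4% lower by the same rule, 57.8% in all, so that passing this test was the common outcome. The count of members is also set in part by the filter: DKK3, FZD5, TCF7, WNT2B and WNT6 averaged under 1 FPKM in RD-ES and FZD9 in SK-N-MC, and these 6 genes could pass the filter only through the line in which they are high. The median log2 difference of the 28 genes was 0.46, beside 0.065 over all genes tested; after scaling of each library to a common median these were 0.34 and -0.042. All values are on the log2(FPKM + 1) scale, which understates the difference of low genes.

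FZD5 had the smallest p, with a mean of 9.11 ± 0.198 FPKM in the SK-N-MC controls and 0.592 ± 0.039 in the RD-ES controls (SD, n = 2 libraries each; log2 difference 2.67 ± 0.11 SE, adjusted p = 1.82e-05 by limma). For FZD4 the means were 4.58 ± 0.281 and 21.5 ± 0.162 FPKM, 4.70-fold lower in SK-N-MC (log2 difference -2.01 ± 0.084 SE, limma adjusted p = 1.82e-05). The promoter windows printed above were picked because of these differences, and any part of their sequence in the differences was not tested. FZD1 followed at 16.2 ± 0.703 against 5.71 ± 0.324 FPKM (log2 difference 1.36 ± 0.085 SE, limma adjusted p = 7.17e-05), with FZD8 at 2.02-fold (log2 difference 0.86, limma adjusted p = 0.000803) and FZD7 at 2.10-fold (0.92, 0.00137). Of the 9 tested receptors 6 were higher in SK-N-MC, and FZD4 and FZD9 were lower, beside 31.4% and 26.4% of all genes. FZD5 and FZD9 could pass the filter only through the line in which they are high. FZD6 did not pass (log2 difference 0.04, 95% interval -0.20 to 0.27).

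WNT5A was lower in the SK-N-MC controls by 3.92-fold (10.9 ± 1.60 against 42.6 ± 6.17 FPKM, log2 difference -1.88 ± 0.15 SE, limma adjusted p = 0.000181). WNT10A was 6.22-fold higher (12.4 ± 1.39 against 1.99 ± 0.831 FPKM, log2 difference 2.19 ± 0.23 SE, limma adjusted p = 0.000521). WNT6 had a log2 difference of 1.60 (limma adjusted p = 0.00181), with 1 of the 2 RD-ES controls listed at 0. WNT10B and WNT3 did not pass, with 95% intervals of the log2 difference of -0.43 to 0.43 and -0.76 to 0.19.

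LEF1 was 9.92-fold higher in the SK-N-MC controls (42.6 ± 1.69 against 4.30 ± 0.655 FPKM, log2 difference 3.05 ± 0.26 SE, limma adjusted p = 0.000222). TCF7 had a log2 difference of 1.60 ± 0.18 SE (2.91 ± 0.137 against 0.294 ± 0.0418 FPKM, limma adjusted p = 0.000579), its RD-ES control values being under 1 FPKM. SFRP2 was 4.36-fold higher (6.37 ± 0.601 against 1.46 ± 0.17 FPKM, log2 difference 1.58 ± 0.14 SE, limma adjusted p = 0.000267). CTNNB1 was lower, at 47.5 ± 0.497 against 75.1 ± 1.49 FPKM (log2 difference -0.65 ± 0.075 SE, limma adjusted p = 0.000685). The other 10 genes that passed had limma adjusted p-values of 0.00447 to 0.0317; WNT2B, DKK3, FZD2, FZD3 and AXIN1 were higher by log2 differences of 0.61 to 1.41, and TCF7L1, LRP5, LRP6, FZD9 and SFRP1 lower with log2 differences of -0.49 to -0.70. AXIN2, DKK2 and TCF7L2 did not pass (95% intervals -0.10 to 0.73, -0.18 to 0.72 and -1.81 to 0.68).

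Without SK-N-MC control replicate 2 AXIN1 no longer passed (limma adjusted p = 0.0505), and FZD9 was lost in 3 of 15 alternative settings, with a highest adjusted p of 0.0547 without SK-N-MC control replicate 1. Other cell-type genes moved with the line as well. The summed level of 5 fibroblast markers, all above the filter, was 9.94 to 14.2 FPKM in RD-ES and 357 to 382 in SK-N-MC. PTPRC, a leukocyte marker, was at 19.2 to 22.6 FPKM in SK-N-MC and at most 0.0173 in RD-ES, while CD3E was listed at 0 in all libraries; the epithelial sum was 40.1 to 60.5 FPKM in SK-N-MC, and the endothelial sum was at most 0.611 FPKM in any library. Their part in the WNT differences was not tested, and in bulk RNA fewer cells of a kind and less RNA per cell cannot be told apart.

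**Figure D3:**
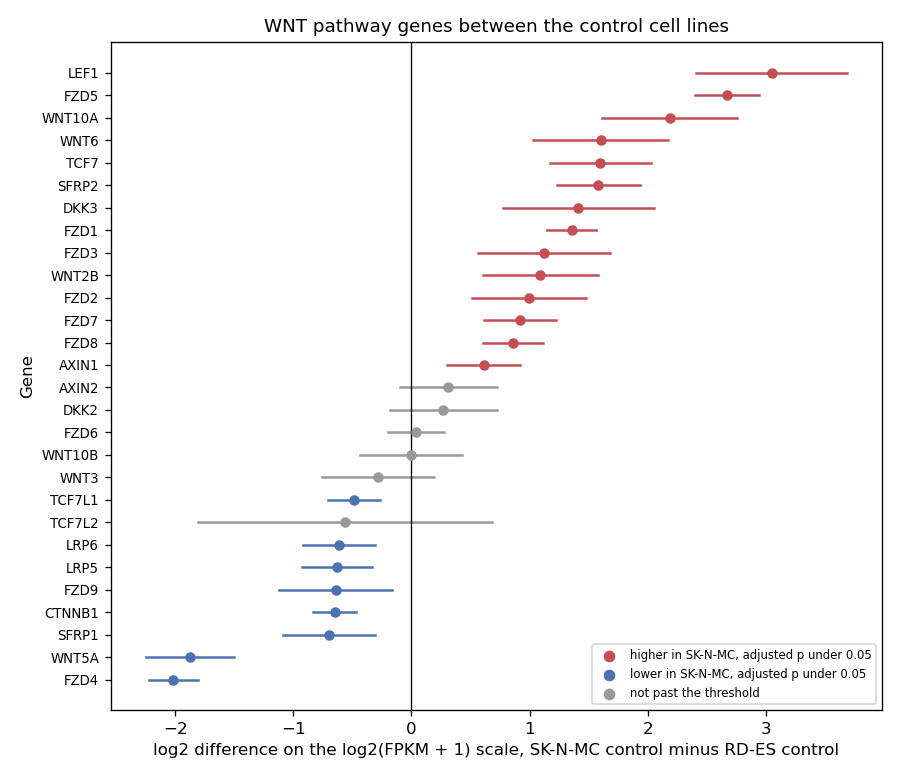
Difference of each tested WNT gene between the control lines, as SK-N-MC minus RD-ES on the log2(FPKM + 1) scale (horizontal axis), with points for the estimate and bars for its 95% interval. Red genes were higher and blue genes lower at an adjusted p under 0.05, and gray genes did not pass; LEF1 (3.05) and FZD5 (2.67) lie farthest to the right and FZD4 (-2.01) and WNT5A (-1.88) farthest to the left.

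The next comparison asked whether silencing of the LOXHD1 enhancer was accompanied by other levels of WNT genes. In RD-ES, 0 of the 28 genes passed an adjusted p under 0.05 (limma), beside 52 of all 15175 genes (0.343%). An unadjusted p under 0.05 was reached by 3 of 28, LEF1, FZD1 and TCF7, beside 12.3% of all genes. LEF1 had a mean of 2.26 ± 1.3 FPKM in eKD2 and 4.30 ± 0.655 in the controls (SD, n = 2), with both eKD2 libraries under both controls (log2 change -0.75 ± 0.26 SE, limma adjusted p = 0.337). Without the library that stood apart the LEF1 change was -0.34 (limma adjusted p = 0.478). FZD1 was at 4.59 ± 0.0338 against 5.71 ± 0.324 FPKM (log2 change -0.26 ± 0.085 SE, limma adjusted p = 0.311) and stayed at -0.26 without that library. TCF7 was at 0.876 ± 0.262 against 0.294 ± 0.0418 FPKM (log2 change 0.53 ± 0.18 SE, limma adjusted p = 0.318), and at 0.39 without that library.

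The next genes by p in RD-ES were SFRP1, FZD8, FZD3, LRP6 and FZD5, with log2 changes of 0.35, -0.17, 0.37, 0.19 and 0.15 and limma adjusted p-values of 0.45 to 0.624; without RD-ES control replicate 2 SFRP1 was at 0.23. The FZD3 value rests on 1 library: without RD-ES eKD2 replicate 1 it was -0.0013. Whether the epithelial markers or the low depth of that library had a part in these values was not tested. The estimate was above 0 for 21 and below 0 for 7 of the 28 genes, with a median of 0.073 beside 0.031 over all genes tested. After scaling to a common median the split was 15 to 13 and the median 0.021.

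In SK-N-MC also 0 of the 28 genes passed the adjusted threshold in limma, beside 49 of all genes (0.323%). An unadjusted p under 0.05 was reached by 1 of 28, SFRP1, beside 13% of all genes. SFRP1 was at 2.02 ± 0.103 FPKM in eKD2 and 1.20 ± 0.245 in the controls, 1.69-fold (log2 change 0.46 ± 0.16 SE, limma adjusted p = 0.32), with no overlap of the libraries. The next by p were DKK2 (2.09 ± 0.0801 against 3.10 ± 0.323 FPKM, log2 change -0.41), LRP6 (-0.26), FZD8 (-0.19), CTNNB1 (0.13), FZD7 (0.21), FZD3 (-0.38) and WNT10A (-0.38), with limma adjusted p-values of 0.43 to 0.544. Single libraries moved several of these: LRP6 was at -0.11 without SK-N-MC control replicate 2 and -0.42 without replicate 1, FZD8 at -0.12 without eKD2 replicate 1, CTNNB1 at 0.22 and 0.049, and WNT10A at -0.19 and -0.57, without eKD2 replicates 1 and 2 respectively. Their control and eKD2 libraries did not overlap, which given the adjusted p-values is no call. How many of all genes show no overlap was not counted, here or for SFRP1 and LEF1, so it sets none of them apart. Estimates were above 0 for 16 and below 0 for 12 genes, and the median was 0.035 beside -0.0049 over all genes tested. For LEF1, the factor with the largest change in RD-ES, the SK-N-MC values were 42.6 ± 1.69 FPKM in the controls and 49.6 ± 0.505 in eKD2. That change did not pass either (log2 change 0.21, 95% interval -0.42 to 0.85, limma adjusted p = 0.802).

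**Figure D4:**
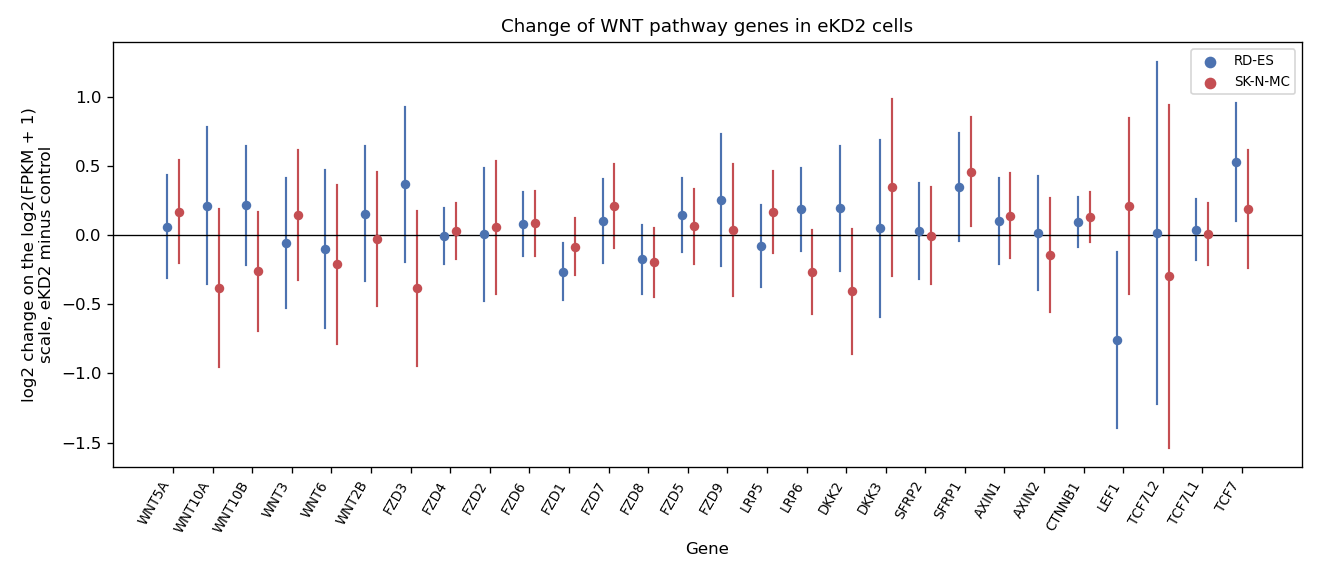
Change of each tested WNT gene in eKD2 cells against controls of the same line on the log2(FPKM + 1) scale (vertical axis), with genes on the horizontal axis, points for the estimate and bars for its 95% interval (unadjusted). Blue is RD-ES and red SK-N-MC; the intervals of FZD1, LEF1 and TCF7 in RD-ES and of SFRP1 in SK-N-MC leave out 0, and 0 of 28 genes passed the adjusted threshold in either line.

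The difference of the eKD2 change between the lines (SK-N-MC minus RD-ES) was tested as an interaction. Of the 28 genes 0 passed the adjusted threshold in limma and 2 had an unadjusted p under 0.05, beside 0.244% and 13.5% of all genes. The 2 were LEF1 (0.97 ± 0.37 SE, limma adjusted p = 0.337) and LRP6 (-0.45 ± 0.18 SE, limma adjusted p = 0.346). LRP6 was at 28.6 ± 1.74 FPKM in the controls and 32.7 ± 1.65 in eKD2 of RD-ES, and at 18.5 ± 2.95 and 15.1 ± 1.04 in SK-N-MC. Without RD-ES eKD2 replicate 1 the difference for LEF1 was 0.55, and without SK-N-MC control replicate 2 that for LRP6 was -0.30. FZD3 (-0.75), DKK2 (-0.60), WNT10B (-0.48), WNT10A (-0.60), FZD1 (0.18) and LRP5 (0.24) followed, with limma adjusted p-values of 0.393 to 0.605. Of these, FZD3 was at -0.38 without RD-ES eKD2 replicate 1, the library that stood apart, DKK2 at -0.39 without RD-ES eKD2 replicate 2, WNT10B at -0.27 without SK-N-MC control replicate 2, WNT10A at -0.31 without RD-ES control replicate 1, and LRP5 between 0.12 and 0.37 with 1 SK-N-MC library left out.

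Averaged over both lines, which sets 4 eKD2 against 4 control libraries, 0 of 28 genes passed the adjusted threshold in limma and 4 had an unadjusted p under 0.05, beside 0.448% and 12.8% of all genes. SFRP1 had a mean change of 0.41 ± 0.11 SE (limma adjusted p = 0.252). Each eKD2 library was above both controls of its line, but how many of all genes show this was not counted. TCF7 was at 0.36 ± 0.12 SE, FZD1 at -0.17 ± 0.060 SE and FZD8 at -0.18 ± 0.073 SE (limma adjusted p = 0.321, 0.328 and 0.378). CTNNB1 (0.12), FZD7 (0.16), LEF1 (-0.27) and AXIN1 (0.12) followed with limma adjusted p-values of 0.441 to 0.624. The LEF1 value was -0.061 and that of FZD7 0.078 without RD-ES eKD2 replicate 1, and -0.48 and 0.24 without RD-ES eKD2 replicate 2; CTNNB1 was at 0.073 without SK-N-MC eKD2 replicate 2, and AXIN1 at 0.065 without RD-ES control replicate 1 and 0.071 without RD-ES eKD2 replicate 2.

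The remaining parts of the pathway were taken from a list of 54 genes for secretion (WLS, PORCN), R-spondins and their LGR receptors, alternative receptors, the destruction complex, beta-catenin cofactors and planar cell polarity, of which 42 passed the filter. Between the control lines 26 of the 42 passed an adjusted p under 0.05, 16 higher and 10 lower in SK-N-MC (61.9%, beside 57.8% of all genes), with a median of 0.18 beside 0.065. NOTUM, ROR2, TLE1 and CELSR1 averaged under 1 FPKM in RD-ES and TLE4 in SK-N-MC, so these could pass the filter only through the other line. The 5 with the smallest p were TLE2, a corepressor of TCF/LEF factors, TNKS, a tankyrase that marks AXIN for degradation, CELSR1, a polarity cadherin, RYK, an alternative WNT receptor, and LGR4, an R-spondin receptor. All were higher in SK-N-MC, with log2 differences of 2.20, 1.87, 2.06, 0.68 and 1.21. TNKS was at 19.0 ± 0.357 FPKM in the RD-ES controls and 72.2 ± 5.16 in the SK-N-MC controls. R-spondin genes RSPO1, RSPO2, RSPO3 and RSPO4 did not pass the filter, and WLS, the carrier needed for secretion of WNT proteins, was at 180 to 220 FPKM in all 8 libraries.

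In eKD2 cells 0 of these 42 genes passed the adjusted threshold of limma in either line. An unadjusted p under 0.05 was reached by 4 genes of RD-ES cells (9.52%, beside 12.3% of all genes), and by 6 of SK-N-MC cells (14.3%, beside 13%). The smallest p-values in RD-ES were those of TNKS (log2 change 0.46), PRICKLE1 (0.74) and APC (0.31), and in SK-N-MC those of BCL9 (-0.51), CSNK1G1 (-0.71) and APC (-0.26), with limma adjusted p-values of 0.166 to 0.335. APC, the scaffold that holds beta-catenin in the destruction complex, was at 13.3 ± 1.26 against 10.5 ± 0.215 FPKM in RD-ES (eKD2 against control) and at 12.4 ± 0.311 against 15.1 ± 0.898 in SK-N-MC. The difference between the lines was -0.57 ± 0.13 SE for APC (limma adjusted p = 0.206).

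Of 15 common target genes of beta-catenin 10 passed the filter (AXIN2, LEF1 and TCF7 are also among the 28 genes above). Between the control lines 7 of 10 passed an adjusted p under 0.05, 6 higher and 1 lower in SK-N-MC. Over all genes 57.8% passed, 31.4% higher and 26.4% lower. The median log2 difference of the 10 genes was 1.48 beside 0.065. The lower gene among those tested was CCND1, at 476 ± 43.3 FPKM in the SK-N-MC controls and 649 ± 97.4 in the RD-ES controls. NKD1, which did not pass the filter, was also lower in SK-N-MC, at 0.0998 ± 0.0553 against 0.525 ± 0.0376 FPKM in the controls. TNFRSF19, likewise under the filter, was higher (0.566 ± 0.115 against 0.312 ± 0.0574 FPKM). The control libraries overlapped for RNF43, and DKK1 and SP5 were at or near 0. NOTUM and TCF7 averaged under 1 FPKM in RD-ES and passed the filter only through SK-N-MC, so that they had to differ. MYC was at 183 ± 20.6 FPKM in the SK-N-MC controls and 42.2 ± 7.4 in the RD-ES controls, APCDD1, a membrane inhibitor of the pathway, at 554 ± 23.8 and 162 ± 10.8, and NKD2, a feedback inhibitor, at 14.8 ± 0.696 and 5.04 ± 0.328 (log2 differences 2.10, 1.76 and 1.39, limma adjusted p = 0.000101, 0.000153 and 0.000338). AXIN2, whose levels are given above, was among the 3 that did not pass. In eKD2 cells 0 of the 10 passed the adjusted threshold of limma; 3 in RD-ES (APCDD1 at -0.42, TCF7 and LEF1) and 1 in SK-N-MC (MYC at -0.38) had an unadjusted p under 0.05, beside 12.3% and 13% of all genes. APCDD1 was at 109 FPKM in RD-ES eKD2 replicate 1, the library that stood apart, and at 134 in replicate 2. The RD-ES controls were at 155 and 170. MYC and APCDD1 respond to many signals besides WNT.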

How the data were processed

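RNA-seq was measured in 8 libraries of the EwS lines RD-ES and SK-N-MC, 2 per group. Per the study's methods and the labels, the authors made poly-A selected TruSeq libraries, sequenced single-end reads of 75 bases, aligned them with STAR to GRCh37 (hg19 in the submitters' notes) and computed FPKM values per gene with cufflinks and cuffnorm, which also scales libraries against each other. The deposited FPKM table holds no read counts, so the count test named in the methods was not used here. Every sample column was matched to its label, and 0 columns belonged to no sample.

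Values were tested as log2(FPKM + 1) with limma 3.58.1 (lmFit, eBayes with trend) in R 4.3.3, 4 groups in 1 fit, two-sided, with Benjamini-Hochberg adjustment and a threshold of 0.05 over the 15175 genes with a mean of 1 FPKM or more. Tables and plots used Python 3.11.15. The code of the fit was run on simulated data with known planted changes. These were larger than the eKD2 changes of the WNT genes described here, so the run does not measure the power to find such changes. WNT genes that passed the filter were named in every library; per comparison, up to 12 past the threshold, or otherwise the 8 of smallest p, were named with a change, and for the pathway and target lists the 3 (eKD2) or 5 (lines) of smallest p where shown; WLS, the RSPO genes and the overlapping and marker genes were named besides. The members, lists and tests were chosen with earlier results of these data known. For a symbol with several rows the row of highest mean was used. Gene positions and overlaps came from GENCODE v44 lifted to GRCh37, and promoter windows from RefSeq on GRCh38.p14. The comparison of the lines shares its control libraries with the eKD2 comparisons. Alternatives were a pseudocount of 0.1, no filter, median scaling, quantile normalization, no variance trend, only the groups compared, a replicate block, and each library left out.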

Additional observations from a re-analysis of the deposited data

How the results depend on the processing

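In each eKD2 comparison 0 of the WNT genes passed the adjusted threshold under any of the alternatives in limma (0 to 9 at an unadjusted p under 0.05), while between the control lines 20 of the 22 passed under all 15. Counts over all genes moved more. Without a filter 79 genes passed in RD-ES, 118 in SK-N-MC and 66 for the difference between the lines; with only the groups compared in the fit, which leaves fewer samples to estimate the spread, the counts were 1 and 13. Leaving out 1 library in turn gave 27 to 71 genes in RD-ES, 12 to 76 in SK-N-MC and 54 to 81 for the difference. The RD-ES count was 27 without either SK-N-MC control, and that of SK-N-MC 12 without either RD-ES control, 22 without either RD-ES eKD2 library and 76 without SK-N-MC eKD2 replicate 1.

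The median difference of the WNT genes between the control lines was 0.53 with a pseudocount of 0.1, 0.11 without a filter, 0.34 after median scaling, 0.30 after quantile normalization, and 0.38 to 0.57 with 1 library left out. The median of their difference in eKD2 change was 0.045 after median scaling, 0.032 after quantile normalization, and -0.081 to 0.0061 with 1 library left out, where its sign carries no call. FZD3 in RD-ES ran from -0.0013 without eKD2 replicate 1 to 0.74 without eKD2 replicate 2. Apart from what the alternatives themselves remove, the cause was not tested.

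Same-numbered libraries did not deviate together (correlation 0.056 for RD-ES, 0.027 for SK-N-MC), so the numbers were taken as names only. With the replicate number as a block 11 genes passed in RD-ES, 5 in SK-N-MC, 7 for the difference and 10 for the mean over both lines, again with 0 WNT genes.

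With 2 libraries per group small changes could be missed, and genes under 1 FPKM rest on few reads. The 95% intervals given are not adjusted for the number of genes tested and are not a limit of detection. In RD-ES the interval of the LEF1 change ran from -1.39 to -0.12, yet its limma adjusted p was 0.337.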
